A study of Mus musculus with 5 samples.

Results

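The mouse genes for heterogeneous nuclear ribonucleoproteins (hnRNPs) and serine/arginine-rich splicing factors (SR proteins) were examined for peaks of the germ-cell zinc finger protein ZFP541 in pachytene and diplotene spermatocytes. All RefSeq protein-coding genes with a symbol that begins with Hnrnp, or that is Srsf followed by a number, were taken: 21 Hnrnp genes and 11 Srsf genes, 32 of 21779 protein-coding genes. Chromatin was immunoprecipitated with a rabbit antibody raised against residues 1 to 300 of ZFP541 and sequenced (ChIP-seq). The mice were adult and of strain C57BL/6, and their spermatocytes were enriched from dispersed testes with STA-PUT, which separates cells by sedimentation. Wild-type mice gave 2 ChIP libraries, called replicate 1 and replicate 2 here, and Zfp541-/- mice gave 1 ChIP library with the same antibody. Input libraries of wild-type cells and precipitates with control IgG were not analysed here. The labels do not say whether the wild-type replicates came from separate animals or how many animals were pooled. Cell type markers cannot be read from peak lists, so the purity of the cells was not checked.

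hnRNP proteins coat nascent transcripts, and many of them repress the use of nearby splice sites. SR proteins bind exonic enhancers through RNA recognition motifs, and their arginine- and serine-rich tails recruit the spliceosome. Both families also act in export, translation and decay of mRNA, and many members control the splicing of their own transcripts. Spermatocytes are known for widespread alternative splicing.

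The deposited lists hold 8236 and 10371 peaks for the wild-type replicates and 256 for the knockout. Each list was called on its own library, and the fold enrichment of a peak is the authors' value, a ratio over the background that their peak caller estimated. Read depth is unknown, and a gene without a listed peak is not shown to be unbound. Overlapping peaks of the wild-type replicates were joined into regions, and regions with a knockout peak were left out, which gave 5325 regions. A gene is called occupied here if such a region overlapped its body or the 1 kb around either end. Folds are given for the region with the best mean percentile rank at a gene, in replicates 1 and 2 in that order.

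Of the 32 genes, 18 (56.25%) were occupied, against 23.9% of all protein-coding genes (95% exact binomial interval 23.4 to 24.5, counting error only). Among Srsf genes 8 of 11 (72.7%) were occupied, and among Hnrnp genes 10 of 21 (47.6%). Without regions shared with another protein-coding gene these counts were 6 of 11 and 4 of 21, beside 17.8% of all genes. The strongest regions lay at Hnrnpdl, Hnrnpab, Srsf6 and Hnrnpr, and none was found at Srsf1, Srsf5 or Hnrnpa1. Median folds at the 18 occupied genes were 5.61 and 6.60, beside 5.71 and 6.38 over all 5213 occupied genes by the same measure. No test was run on this chosen family, and genes that share a region are not independent of each other.

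Promoters of 6 genes are shown, because occupied genes of the family had a higher median number of CpG dinucleotides (capitals) at their starts than the others. The first 4 belong to occupied genes whose listed start of transcription is also the outer limit of the gene. They hold 23, 35, 23 and 35 CpG in 250 bases. Srsf5 and Hnrnph2, which had no peak in any library, hold 17 and 10 and are among the lower counts of the family. Other genes without a region held more in 250 bases, such as Hnrnph3 with 25 and Hnrnpul1 with 22, both without a peak in any library, and Hnrnpa3 with 40. Each sequence is the 250 bases before the listed start, 5′ to 3′ on the gene's strand, from RefSeq on GRCm38.p6, the assembly of mm10.
Hnrnpab, chr11:51606882-51607131, minus strand: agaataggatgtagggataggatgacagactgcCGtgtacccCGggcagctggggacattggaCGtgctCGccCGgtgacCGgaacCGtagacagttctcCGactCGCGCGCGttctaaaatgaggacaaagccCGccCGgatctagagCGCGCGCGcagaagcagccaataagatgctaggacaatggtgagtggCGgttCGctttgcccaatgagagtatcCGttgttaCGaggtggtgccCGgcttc
Srsf6, chr2:162931258-162931507, plus strand: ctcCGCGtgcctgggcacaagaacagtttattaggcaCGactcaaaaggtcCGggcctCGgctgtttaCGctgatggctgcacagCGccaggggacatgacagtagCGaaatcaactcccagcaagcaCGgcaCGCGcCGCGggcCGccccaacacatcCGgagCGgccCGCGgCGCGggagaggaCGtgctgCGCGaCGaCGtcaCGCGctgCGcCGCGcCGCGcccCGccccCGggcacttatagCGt
Hnrnpr, chr4:136310692-136310941, plus strand: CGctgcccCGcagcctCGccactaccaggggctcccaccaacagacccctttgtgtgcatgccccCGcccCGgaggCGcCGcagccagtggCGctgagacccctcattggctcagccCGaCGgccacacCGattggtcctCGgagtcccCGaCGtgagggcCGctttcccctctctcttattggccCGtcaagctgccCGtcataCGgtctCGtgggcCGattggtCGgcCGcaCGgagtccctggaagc
Srsf3, chr17:29032410-29032659, plus strand: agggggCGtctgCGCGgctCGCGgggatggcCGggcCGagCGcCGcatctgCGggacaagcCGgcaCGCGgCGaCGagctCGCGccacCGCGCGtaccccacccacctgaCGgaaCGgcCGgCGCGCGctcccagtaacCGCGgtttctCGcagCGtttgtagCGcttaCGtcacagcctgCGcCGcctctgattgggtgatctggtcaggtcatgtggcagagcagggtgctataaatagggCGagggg
Srsf5, chr12:80945249-80945498, plus strand: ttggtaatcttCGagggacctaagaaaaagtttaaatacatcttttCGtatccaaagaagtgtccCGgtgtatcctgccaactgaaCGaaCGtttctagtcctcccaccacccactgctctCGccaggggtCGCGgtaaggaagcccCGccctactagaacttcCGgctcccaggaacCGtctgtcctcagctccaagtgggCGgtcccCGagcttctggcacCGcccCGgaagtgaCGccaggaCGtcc
Hnrnph2, chrX:134600929-134601178, plus strand: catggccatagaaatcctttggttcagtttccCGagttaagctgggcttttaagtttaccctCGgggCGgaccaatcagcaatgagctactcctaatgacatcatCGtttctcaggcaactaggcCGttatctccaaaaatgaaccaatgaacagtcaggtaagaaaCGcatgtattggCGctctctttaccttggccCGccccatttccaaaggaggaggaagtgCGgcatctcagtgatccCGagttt

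Hnrnpdl encodes an RNA-binding protein closely related to hnRNP D and had the highest region of the family (chromosome 5, 100038163 to 100040990). Its fold was 17.1 in replicate 1 and 23.2 in replicate 2, rank 12 of 5325 regions. The region was 2828 bp wide and also held the start of Enoph1, which is transcribed in the opposite direction from a start 772 bp away. Summits lay 543 and 569 bp upstream of the Hnrnpdl start, so this peak cannot be assigned to Hnrnpdl rather than Enoph1. Hnrnpd itself, whose product AUF1 binds AU-rich elements and directs mRNA decay, lies 54446 bp from Hnrnpdl. It had a region of its own (chromosome 5, 99977577 to 99979100) with folds of 5.10 and 7.05. That region is shared with 4930524J08Rik, whose start is 3 bp away on the other strand.

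Hnrnpab, which encodes hnRNP A/B, had the highest region that lay at no other protein-coding gene (chromosome 11, 51605837 to 51607008). Its folds were 12.5 and 10.4, rank 429. The summits were 606 and 698 bp downstream of the start, in the gene. At Hnrnpr, which encodes a relative of SYNCRIP, folds were 9.51 and 8.73 (chromosome 4, 136310534 to 136311605). The Hnrnpr region covered both listed starts, and its summits were 23 bp downstream and 3 bp upstream of one of them. Both regions passed in each library alone and at every peak threshold tried.

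Hnrnpa2b1, which encodes a regulator of splicing and RNA transport, had folds of 5.36 and 8.39 (chromosome 6, 51470017 to 51471380). That region held the start of the neighbour Cbx3, a heterochromatin protein gene on the opposite strand, and neither listed start of Hnrnpa2b1. A second, weak region inside Hnrnpa2b1 had 3.55 and 2.36 (chromosome 6, 51469285 to 51469807), also within 1 kb of Cbx3. Hnrnpa0, a short gene of 2678 bp for an AU-rich element binding protein, had nearly equal folds of 6.45 and 6.43 over a broad region of 2143 bp (chromosome 13, 58127329 to 58129471). Hnrnpll, whose product represses exons in lymphocytes, had 6.43 and 7.38 (chromosome 17, 80061448 to 80062892). The Hnrnpll region held a start of 4933407O12Rik.

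Hnrnpk, which encodes a poly(C)-binding protein, had a fold of 3.70 in replicate 1 and 6.04 in replicate 2 (chromosome 13, 58401832 to 58403209). Its region also held the start of Rmi1, a helicase-complex gene transcribed the other way from 131 bp away. Outside that region, replicate 1 alone had a peak of fold 3.93 in Hnrnpk, with its summit 682 bp downstream of the start. Hnrnpu, for the nuclear scaffold protein hnRNP U, had 3.93 and 5.13 (chromosome 1, 178336480 to 178338038). The summits of its highest peaks were 107 bp upstream in replicate 1 and 866 bp downstream in replicate 2. Another replicate 1 peak in the Hnrnpu region, of nearly equal fold (3.85), had its summit 1186 bp downstream. Hnrnpul2 had the lowest-ranked region among occupied Hnrnp genes when each gene's best region was taken, with 3.93 and 2.84 (chromosome 19, 8819955 to 8820293). It was 339 bp wide, lay within 1 kb of Ttc9c and had a −log10 q of 0.82 in replicate 2, beyond a q-value of 0.05.

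Srsf6 had the highest region among SR genes (chromosome 2, 162930849 to 162932383). Its folds were 7.71 and 11.8, rank 826, with summits 116 and 415 bp downstream of the start. Srsf11, for an atypical SR protein, differed in place. Its region (chromosome 3, 158031098 to 158031818) had folds of 7.10 and 6.61 and lay inside the gene, over the second of 2 listed starts. The summits were 147 and 124 bp downstream of that inner start. At the outer start replicate 2 alone had a peak, of fold 3.36. The other 17 occupied genes, of 32 in the family, had a region within 1 kb of a gene end. Of all 21779 protein-coding genes, 5213 were occupied and 4573 (21%) had a region within 1 kb of an end.

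Srsf3 and Srsf4, for the smallest and one of the largest classical SR proteins, had summits just upstream of their starts. At Srsf3 the folds were 5.42 and 7.72 and the summits 210 and 158 bp upstream (chromosome 17, 29031801 to 29032999). The region was within 1 kb of a lncRNA gene, Gm16196. At Srsf4 the folds were 5.80 and 6.59 and the summits 156 and 155 bp upstream, over all 3 listed starts (chromosome 4, 131873243 to 131874138). The summits of the replicates thus nearly coincided at Srsf4, as they did at Hnrnpr, Hnrnpdl and Srsf11.

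Srsf10, whose product is a splicing repressor when dephosphorylated, had a higher fold in replicate 1, 6.65, than in replicate 2, 4.24 (chromosome 4, 135855564 to 135856786). Srsf9 had 3.87 and 5.71, with a summit 1 bp from the start in replicate 1 (chromosome 5, 115326831 to 115327905). Srsf2, for the nuclear speckle protein SC35, had 4.64 and 4.22 over a region that reaches into the window of Mfsd11 (chromosome 11, 116852113 to 116853381). At Srsf10 and Srsf2 the summit of the highest peak was downstream of the start in replicate 1 and upstream in replicate 2. A second, weaker replicate 1 peak in the Srsf2 region (fold 2.62) had its summit 131 bp upstream. Srsf7 had the weakest SR region, 3.87 and 2.38 (chromosome 17, 80206824 to 80207199), within 1 kb of Gemin6 and with a −log10 q of 0.13 in replicate 2. Srsf7 and Hnrnpul2 were not occupied when peaks had to reach a q-value of 0.05.

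**Figure D1:**
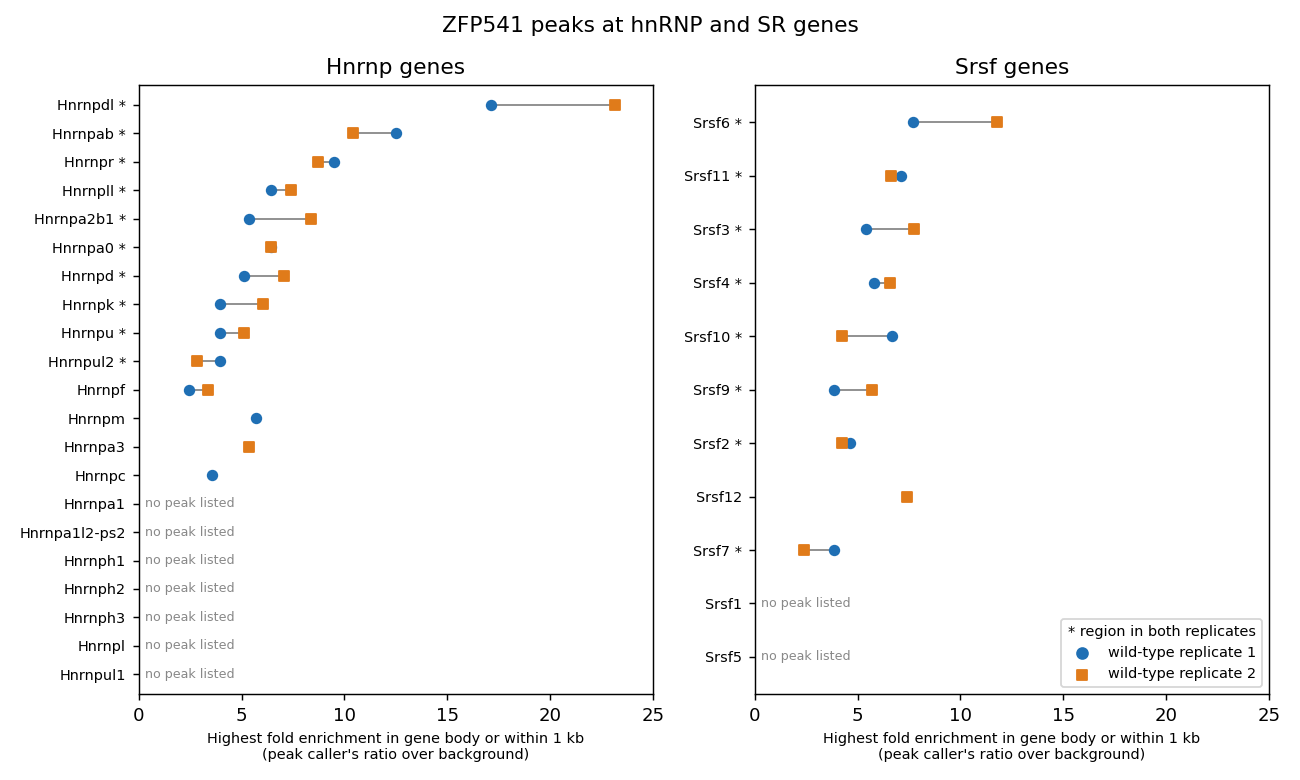
Highest fold enrichment (the peak caller's ratio over background, linear axis) of any peak in the gene body or within 1 kb of its ends, for Hnrnp genes on the left and Srsf genes on the right; circles are wild-type replicate 1, squares replicate 2, and a star marks the 18 occupied genes. Hnrnpdl stands above all others at 17.1 and 23.2, the circle of Hnrnpa0 lies under its square, and 9 genes have no peak listed in either library.

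Of the 14 genes that were not occupied, 5 had a peak in a wild-type library. A peak stood in replicate 1 only at Hnrnpm (5.71) and at Hnrnpc (3.57), whose product binds uridine tracts. It stood in replicate 2 only at Hnrnpa3 (5.37) and at Srsf12 (7.38), an atypical SR gene. Hnrnpf, whose product binds G-rich RNA, had weak peaks in both, of highest fold 2.44 and 3.35, that did not overlap each other. The peaks at Hnrnpa3, Srsf12 and Hnrnpm had −log10 q values of 6.08, 11.7 and 6.50, so these calls were not marginal in the library that had them. At least 1 peak was listed at 21 genes in replicate 1 and at 21 in replicate 2, against 27.8% and 32.6% of all protein-coding genes.

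The other 9 had no peak in any library: Hnrnpa1, Hnrnph1, Hnrnph2, Hnrnph3, Hnrnpl, Hnrnpul1, Srsf1, Srsf5 and Hnrnpa1l2-ps2. Hnrnpa1 and Srsf1 encode a well-known opposing pair of splicing regulators, hnRNP A1 and SF2/ASF. Hnrnph1, Hnrnph2 and Hnrnph3 encode G-run binding proteins, and none of these 3 had a peak. Hnrnph2 is the only one of the 32 on the X chromosome. Hnrnpa1l2-ps2 is annotated as protein-coding although its symbol is that of a pseudogene. The nearest peaks to Srsf1 were 14985 bp away in replicate 1 and 14190 bp in replicate 2, and those to Hnrnpa1 were 58135 and 58239 bp away. Hnrnph1 had its nearest peaks at 15747 and 15708 bp. The 2 kb window added none of the 9.

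No knockout peak lay at any of the 32 genes, and the nearest to any of them was 748843 bp away. Only 48 of 21779 protein-coding genes (0.22%) had a knockout peak in this window, so its absence at 32 genes sets them apart from few others. Knockout peaks overlapped 132 of 5457 shared wild-type regions, none of them at these genes. With 1 knockout library of unknown depth, the genotypes were not tested against each other.

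Regions at the occupied genes lay near starts of transcription. Strand and starts are listed for 30 of the 32 genes (not for Hnrnpll and Hnrnpul2), and 16 of these 30 were occupied. A region within 1 kb of a listed start was found at the same 16 of 30, against 21.7% of the 17492 protein-coding genes with a listed start. The median distance from summit to nearest start was 230.5 bp in replicate 1 and 238.5 bp in replicate 2, beside 217 and 224 bp over all occupied genes with a listed start. Summits of the highest peak in each gene's best-ranked region were downstream of the start at 9 of 16 genes in replicate 1 and 7 of 16 in replicate 2. Over all occupied genes the shares were 66.5% and 67.0%. The median width of the family's regions was 1246 bp, against 1061 bp over all regions.

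**Figure D2:**
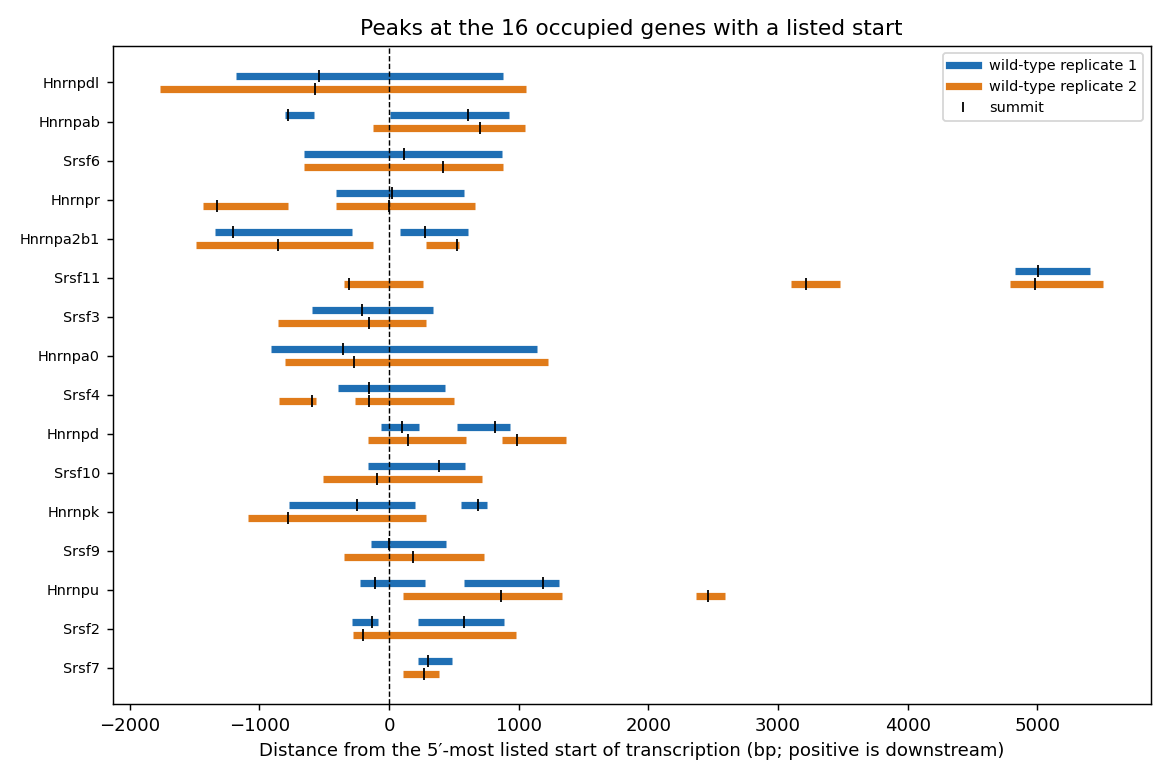
Peaks (bars) and their summits (ticks) at the 16 occupied genes with a listed start, as distance in bp from the 5′-most listed start, with downstream positive; blue is wild-type replicate 1 and orange replicate 2. All genes but Srsf11 have a region within about 1 kb of the dashed line, and at Srsf11 the peaks found in both replicates lie over the inner start.

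Many regions were shared with a neighbouring gene. At 8 of the 18 occupied genes (44.4%) every region also lay in another protein-coding gene or the 1 kb around it, against 25.5% of all occupied genes (1329 of 5213). These were Hnrnpdl, Hnrnpd, Hnrnpa2b1, Hnrnpk, Hnrnpll, Hnrnpul2, Srsf2 and Srsf7. The 10 genes with a region of their own were Hnrnpab, Hnrnpr, Hnrnpa0, Hnrnpu, Srsf3, Srsf4, Srsf6, Srsf9, Srsf10 and Srsf11, which is 31.25% of the 32, beside 17.8% of all protein-coding genes. Within the families the count without shared regions was 6 of 11 for Srsf and 4 of 21 for Hnrnp genes. The Hnrnp share was then near the 17.8% of all protein-coding genes. The median span of the 32 genes was 10992.5 bp, and that of all protein-coding genes 17217 bp. Over all protein-coding genes the share occupied was 11.7% in the shortest quartile of span and 37.9% in the longest, which held 0 of the 32; the part of span in the family's share was not tested.

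The replicates ranked the occupied genes in a similar order. Spearman's rho of fold between the libraries was 0.73 over 18 genes and 0.74 over all 5325 regions; genes are not replicates, several of these values share a region with a neighbour, and only regions found in both libraries enter. Fold was higher in replicate 2 at 10 genes and higher in replicate 1 at 8. With a rho of 0.73 the order of the occupied genes differed in part between the libraries, while Hnrnpdl had the highest fold in both.

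Promoters of the occupied genes were rich in CpG. In the 300 bases from 250 before to 50 after the 5′-most listed start, the 16 occupied genes had 25 to 52 CpG with a median of 39.5. The other 14 had 3 to 44 with a median of 22. All 17492 genes had a median of 13, and the 4216 occupied ones among them a median of 27. Those of highest count were Hnrnpa0 with 52 and Srsf4 with 49, and the ranges of the groups overlapped. The lowest occupied gene was Srsf11, whose 25 CpG stand at its outer start. Its region lay over the inner start instead, with 16 CpG in the 250 bases before that start. Of the genes without a region, 5 had at least the 25 CpG counted for Srsf11. They were Hnrnpa3 with 44, Hnrnph3 with 32, Hnrnpm with 27, and Hnrnpul1 and Srsf12 with 26 each; Hnrnph3 and Hnrnpul1 had no peak in any library. Over all protein-coding genes, 5.92% of those with under 10 CpG were occupied, 20.8% of those with 10 to 19 and 47.6% of those with 20 or more. Of the 26 family genes with 20 or more CpG, 16 (61.5%) were occupied, and of the 4 with fewer none was. With 25 or more CpG, 16 of 21 family genes (76.2%) were occupied, beside 55.7% of 4277 protein-coding genes. That cutoff is the lowest count of an occupied family gene, so it favours the family by construction. The part of CpG content in the family's share was not tested.

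**Figure D3:**
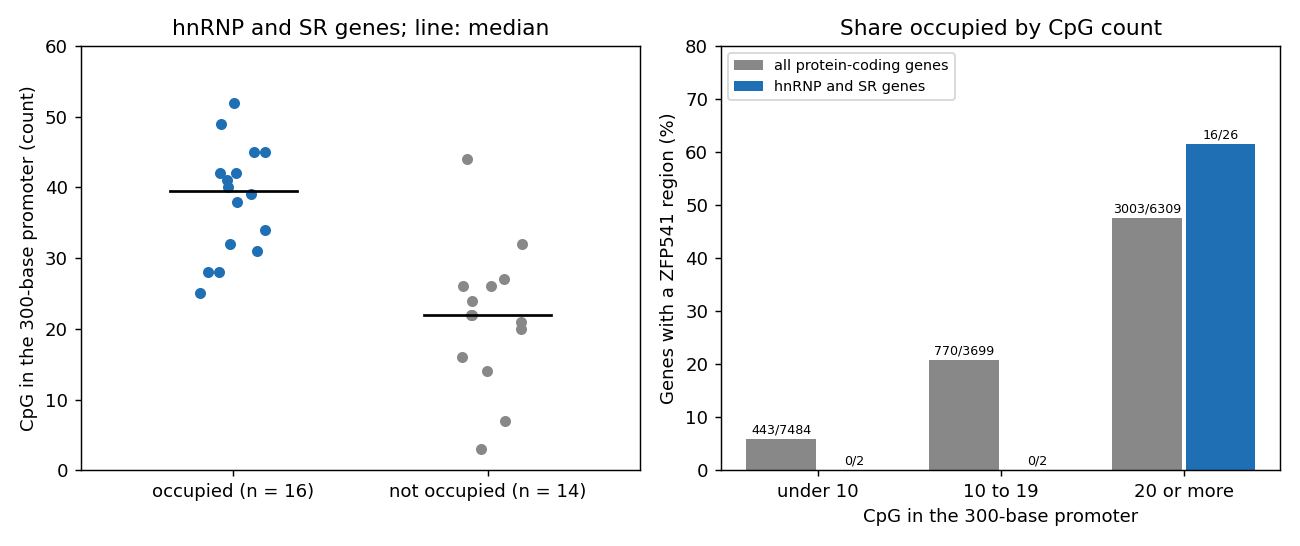
Left, CpG count in the 300-base promoter of each of 30 hnRNP and SR genes, by whether the gene was occupied, with the median as a line; right, percent of genes occupied by CpG count, for all protein-coding genes (grey) and for the family (blue), with the numbers of genes above the bars. The lowest count of the 16 occupied genes at the 5′-most listed start is 25, and 5 of the 14 others hold at least as many. Of all genes, 55.7% of those with 25 or more CpG and 47.6% of those with 20 or more are occupied. The region of Srsf11 lay over its inner start, which is not the one counted.

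Short motifs were searched on both strands of the same 300 bases. A GC box (GGGCGG) was in 23 of 30 family promoters (76.7%), against 46.3% of all promoters and 72.0% of those of occupied protein-coding genes. It was in 13 of 16 occupied and 10 of 14 other family genes. CCAAT was in 17 (56.7%, all promoters 39.2%), TGACGT, the core of the cyclic AMP response element, in 8 (26.7%, all 8.71%) and CCGGAAG, an ETS site, in 6 (20%, all 11.9%). TATAAA was in 5 (16.7%, all 13.3%), among them Srsf2 and Srsf3, and the E-box CACGTG in 4 (13.3%, all 7.91%). The NRF1 core GCATGCG was in 2 of 30 (6.67%, all 4.50%), the MYB site AACNGTT also in 2 (6.67%, all 3.93%), and the YY1 core GATGGCG also in 2 (6.67%, all 4.45%). Over all occupied protein-coding genes CCAAT was in 36.5%, TGACGT in 12.1%, CCGGAAG in 15.8%, TATAAA in 5.46% and the E-box in 12.0%. None of the searched motifs contains another of them. In occupied and other family genes in turn, CCAAT was in 8 of 16 and 9 of 14, TGACGT in 4 of 16 and 4 of 14, the E-box in 1 of 16 and 3 of 14, and the YY1 core in 2 of 16 and 0 of 14. No difference between these groups was tested.

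Related splicing genes were counted in the same way. Of 125 genes in 5 lists, 54 (43.2%) were occupied, beside 23.9% of all protein-coding genes. By list this ran from 13 of 20 in the highest by share to 10 of 28 in the lowest 2. The median span of the 125 genes was 21943 bp, and that of the list of other splicing regulators 40465.5 bp, beside 17217 bp for all protein-coding genes. The part of span in these shares was not tested. None of the 125 had a knockout peak. Where replicate peaks had to cover 50% of each other, the list of hnRNP proteins with other symbols had 8 of 20 and that of U4/U6, U5 and catalytic step proteins 4 of 28, beside 17.5% of all protein-coding genes. The latter list had 5 without shared regions, beside 17.8%. With the −log10 q minimum set to 5 the order of the lists changed: 6 of 20 hnRNP proteins with other symbols, 7 of 21 SR-related proteins and SR regulators and 3 of 28 U4/U6, U5 and catalytic step proteins were occupied, beside 13.7% of all genes.

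Among hnRNP proteins with other symbols 13 of 20 were occupied. The highest was Rbmxl2 with folds of 11.4 and 11.5, a germ cell retrogene related to the X-linked Rbmx, and neither Rbmx nor Rbmxl1 had a peak in either library. Next came Pcbp4 (9.21 and 13.4), whose region is shared with Gpr62, Syncrip (8.57 and 10.7) and Ptbp1, the polypyrimidine tract binding protein gene (7.74 and 9.48). Among SR-related proteins and SR regulators 10 of 21 were occupied, led by the speckle protein gene Son (7.50 and 7.38, shared with Gart), the SR kinase genes Srpk2 (7.50 and 7.05) and Srpk1 (6.28 and 7.68), and Rnps1 (7.70 and 6.60, shared with Eci1). The SR-like activators Tra2a and Tra2b had no peak in either library.

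Other splicing regulators were occupied at 11 of 28, led by Celf2 (13.6 and 18.1), Mbnl1 (12.2 and 17.2), Khdrbs3 (8.46 and 10.1) and Rbfox2 (6.52 and 11.1). Celf2 and Mbnl1, at ranks 72 and 131, were above every Hnrnp and Srsf gene but Hnrnpdl. Proteins of the U1 and U2 snRNPs and the branch point had 10 of 28, led by Snrnp70 (11.1 and 8.09), Sf3b2 (8.85 and 8.73, shared with Pacs1), U2af1 (9.29 and 7.68) and Puf60 (8.57 and 8.06, shared with Scrib). Proteins of the U4/U6 and U5 snRNPs and of the catalytic steps also had 10 of 28, among them Cdc40 (12.1 and 11.1, shared with Wasf1), Prpf40b (7.71 and 11.1, shared with Fam186b) and Cdc5l (4.10 and 7.71). Core components such as Prpf8, Snrnp200 and Sf3b1 had no peak in any library.

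**Figure D4:**
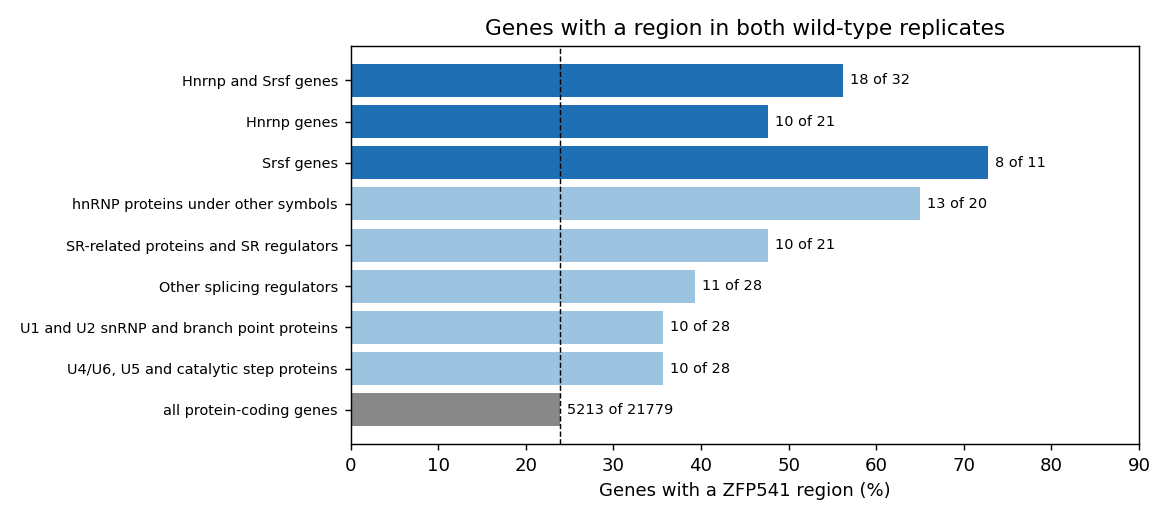
Percent of genes with a ZFP541 region in both wild-type replicates, for the hnRNP and SR genes (dark blue), 5 lists of related splicing genes (light blue) and all protein-coding genes (grey, dashed line at 23.9%), with the counts beside the bars. Srsf genes have 8 of 11 and the 2 lists of spliceosome components 10 of 28 each.

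The count of occupied family genes followed the peak threshold. At a −log10 q of at least 5 it was 11 of 32, against 13.7% of all protein-coding genes, and at 10 it was 5, against 7.89%. The 5 were Hnrnpdl, Hnrnpab, Hnrnpr, Srsf6 and Srsf11. With replicate 1 or replicate 2 peaks alone it was 21 in each case, against 27.8% and 32.6%. It stayed at 18 when the summit had to lie in the window (23.6% of all genes) and when regions with a knockout peak were kept (24%).

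**Figure D5:**
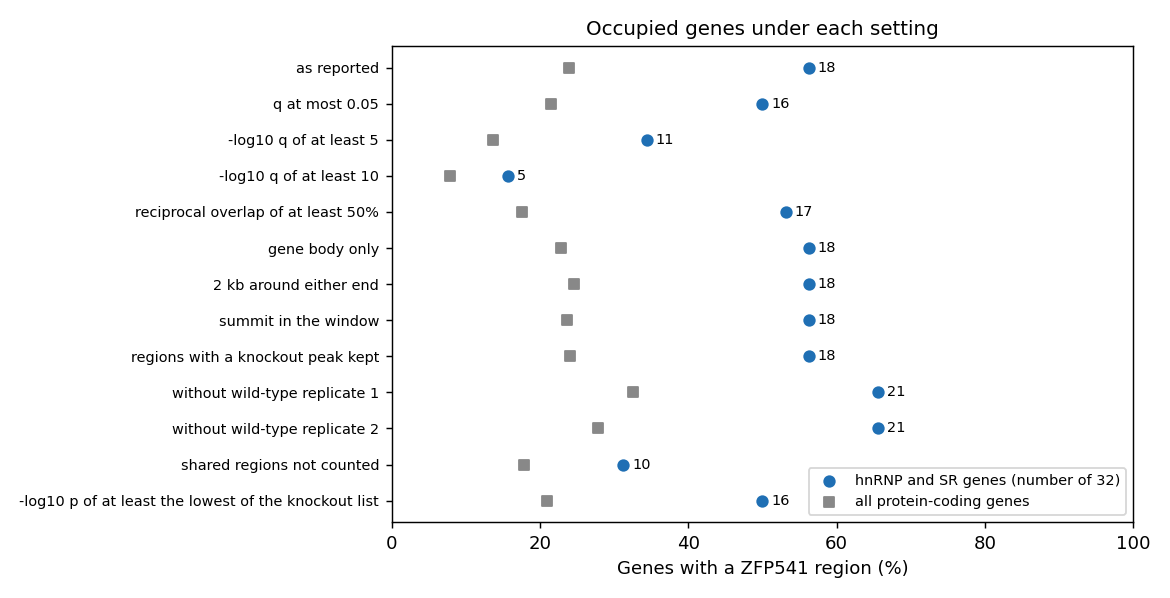
Percent of genes occupied under each setting, for the hnRNP and SR genes (blue circles, with the number of 32) and for all protein-coding genes (grey squares). The family counts run from 5 at a −log10 q of at least 10 to 21 with either replicate alone, and the family's percent is above that of all genes in each row.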

How the data were processed

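ChIP-seq peak lists of 3 libraries were used. The submitters' processing notes name mm10 as the build and MACS2 2.2.6, Bowtie2 2.3.5, cutadapt 2.6, deepTools 3.5.0, Picard and SAMtools 1.10 as tools. How each was set, the control and the peak threshold are not stated there. The deposited lists give, for each peak, the fold enrichment (a ratio), −log10 p, −log10 q, a score that repeats the −log10 q and a summit offset in bp. Lists are per library. No read counts or depths were used.

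Peaks sharing at least 1 bp were joined, regions with a knockout peak removed, and genes of RefSeq GRCm38.p6 compared with them. Of protein-coding entries, 108 placed before 3 Mb of an autosome or X carry scaffold coordinates and were left out. Starts and promoters came from the RefSeq promoter table, which lists 17492 of the 21779 genes. All symbols of the related lists were matched. Every family gene was named, and up to 4 occupied genes of each related list, ranked by mean percentile of fold over the replicates. Of the genes this rule names, 1 is left out of the text. Members, lists, motifs and settings were chosen with earlier results of these data known. CpG classes, the start window and the −log10 p minimum were chosen after the files were seen. No test was run on the family.

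Tools were scipy 1.17.1, pandas 2.3.3, numpy 2.4.6 and matplotlib 3.10.9 in Python 3.11.15. The joining and overlap steps were tested on simulated data.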

Additional observations from a re-analysis of the deposited data

How the results depend on the processing

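The count of 18 occupied family genes stayed within 1.5 times under a q-value of at most 0.05 (16), a reciprocal overlap of at least 50% (17), the gene body alone, a 2 kb window, the summit in the window and knockout peaks kept (18 each), each replicate alone (21 each), and a −log10 p of at least 4.47, the lowest of the knockout list (16). Over all protein-coding genes the share occupied ran from 17.5% to 32.6% under these settings. The family count was 18 when genes were counted by gene body or window and 16 by a listed start. At a −log10 q of at least 5 it was 11, with 7 Hnrnp and 4 Srsf genes, 10 genes at a gene end and 31 related genes. At a −log10 q of at least 10 the count was 5, beside 7.89% of all protein-coding genes. These were 3 Hnrnp and 2 Srsf genes, with 4 at a gene end, and 19 related genes were occupied. Without regions shared with a neighbour the count was 10, beside 17.8% of all protein-coding genes. It held 9 genes at a gene end and 4 of the 21 Hnrnp genes, a share near that of all genes. Fewer peaks or regions enter these counts by construction. Hnrnpab, Hnrnpr, Srsf6 and Srsf11 were occupied under all 12 alternatives. Gene ends have no window of 0 bp, so 500 bp was used in its place. No paired analysis was possible because the genotypes share only 1 replicate number and no test between them was run. Depth is unknown and limits what a missing peak means.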

Other observations

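Several of these genes lie near each other. Hnrnpll and Srsf7, both occupied, are 137811 bp apart on chromosome 17, Hnrnpa0 and Hnrnpk 262575 bp apart on chromosome 13, and Srsf10 and Hnrnpr 441033 bp apart on chromosome 4. No region was shared by 2 genes of this family.

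Hnrnpf has 4 listed starts. The 5′-most has 7 CpG in 300 bases and no peak. Its weak peaks lay at inner starts: a summit of replicate 1 fell in the promoter window of the start at 117906782 on chromosome 6, and one of replicate 2 in that of the start at 117907804, where 30 CpG stand in the 250 bases before the start.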
